A study of Mus musculus with 6 samples.

Results

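Ribosomal protein genes encode the proteins that, together with ribosomal RNA, build the small and the large subunit of the ribosome. In growing cells they belong to the most strongly transcribed genes, their products are needed in equal amounts, and their promoters are used in nearly every cell type, so that they serve as a picture of a highly active housekeeping promoter. Their messages start in a tract of pyrimidines through which translation of the whole set is tuned to nutrients, and many of their introns carry genes of small nucleolar RNAs. They are not textbook targets of Nodal/Activin signaling, in which the receptor kinases phosphorylate Smad2, and phosphorylated Smad2 (pSmad2) enters the nucleus with Smad4 and binds enhancers next to partner factors.

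The genes were chosen by symbol from a GENCODE annotation of the mouse assembly mm9. Taken were protein-coding autosomal genes named Rpl or Rps with a number, followed at most by a letter or by l, and Rplp0, Rplp1, Rplp2 and Rpsa. Pseudogenes and the Rps6k kinases were left out. This gave 77 of 21410 autosomal protein-coding genes, 31 of the small and 46 of the large subunit, and 4 further genes on the X chromosome were not counted. The rule itself uses symbols and no measured value, but it was set with earlier results of these data known.

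The libraries come from E14 TG2A, a mouse embryonic stem cell line propagated in serum (FBS) media with leukemia inhibitory factor (LIF). The cells were plated for 18 h in FBS media. They were then moved to KSR media, which held a serum replacement and no LIF. Cells were kept for 6 h in every group in 10 µM SB-431542 (SB), which blocks these kinases, and then for 18 h in 25 ng/ml Activin, in the solvent DMSO at 1/5000 as the control, or in 10 µM SB. The paper's Western blot found pSmad2 lowered but still present under SB, and raised under Activin, against DMSO. From each treatment a ChIP library was made with an antibody against pSmad2, and an input library from chromatin that did not pass the antibody. A library made with a control antibody was not among them, so the part of unspecific pull-down in the ChIP tags was not tested. With 1 library of each kind, a difference between treatments and a difference between cultures or preparations cannot be told apart, and all tests and 95% Clopper-Pearson intervals below cover counting error only. Libraries of genomic DNA hold no expression, so the identity of the cells was not checked against markers.

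Tags that shared position and strand were counted once, because such tags may be PCR copies, which are not independent molecules. This left 10537724 (Activin), 9713869 (DMSO) and 7805150 (SB) ChIP tags and 9786787 to 11913742 input tags. The tags dropped in this way made up 19.9% to 24.6% of the ChIP and 5.64% to 6.94% of the input tags, and within 1 kb of the start sites of the ribosomal protein genes 15.9% to 21.2% and 3.65% to 5.09%. Around the start sites of all genes 34.1% to 37.2% of the ChIP and 32.4% to 33.9% of the input tags were dropped, and how many of them are PCR copies was not tested. A tag was moved 100 bp to the middle of its fragment and counted if that point lay within 1 kb of the start site. The libraries were scaled by their totals and compared by two-sided exact binomial tests with Benjamini-Hochberg adjustment over all 21410 genes, and a gene was called at an adjusted p under 0.05.

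The promoters are shown for some of the members named first by the selection rule. Given are the 100 bases before the start site, read from mm9 in the direction of transcription. Shown are Rpsa (Activin), Rpl36 (DMSO) and Rpl23a (SB), the highest in ChIP over input among members with at least 10 input tags. Also shown are Rpl13, Rplp0 and the muscle paralog Rpl3l. Rpl13 was the member called between the SB and DMSO ChIP libraries, a call that did not hold under every scaling (below). Capitals mark CGGAAG on either strand, the core that ETS factors such as GABPA recognise. Rpsa, which encodes the laminin receptor protein of the small subunit, lies at chr9:120036784-120036883 (plus strand), Rpl36 at chr17:56752718-56752817 (plus), Rpl23a at chr11:77997087-77997186 (minus), Rpl13 at chr8:125626150-125626249 (plus), Rplp0 at chr5:116009376-116009475 (plus) and Rpl3l at chr17:24864674-24864773 (plus).
Rpsa: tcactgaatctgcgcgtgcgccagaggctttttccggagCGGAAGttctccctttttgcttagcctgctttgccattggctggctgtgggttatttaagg
Rpl36: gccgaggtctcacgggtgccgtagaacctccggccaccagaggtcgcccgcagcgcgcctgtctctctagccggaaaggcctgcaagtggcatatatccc
Rpl23a: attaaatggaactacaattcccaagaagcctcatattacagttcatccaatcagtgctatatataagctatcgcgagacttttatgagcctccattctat
Rpl13: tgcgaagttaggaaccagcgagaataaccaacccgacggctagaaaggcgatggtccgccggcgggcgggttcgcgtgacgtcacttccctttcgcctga
Rplp0: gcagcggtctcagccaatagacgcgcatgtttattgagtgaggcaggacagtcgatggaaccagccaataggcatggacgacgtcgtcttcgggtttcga
Rpl3l: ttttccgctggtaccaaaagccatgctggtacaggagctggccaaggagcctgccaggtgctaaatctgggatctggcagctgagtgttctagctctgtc
Of these windows, the one of Rpsa holds CGGAAG, and the others hold none on either strand. Of members also named first and not printed, Rpl24 holds CGGAAG, and Rpl13a, Rpl18 and Rps24 hold none. Over all members, CGGAAG occurred in the 100 bases upstream of 27, or 35.1%, against 10.1% of all coding genes, and in the window from 250 bases before to 50 after the start site in 45, or 58.4%, against 20.5%. CAGAC, the box bound by Smad proteins, was found on either strand of the longer window in 41.6% of the members and 48.2% of all genes. GGGCGG, an Sp1 core, was found in 50.6% and 44.9%, ATGGCG in 28.6% and 11.1%, and TATAAA in 10.4% and 13.5%. At the start site used, a C followed by 4 pyrimidines was found in 3 members, or 3.90%, against 2.01% of all genes. Whether these sites mark the first base of the message was not tested. The members' windows of 1 kb on each side had a median GC content of 52.6% against 51.4% for all genes, and a median observed over expected CpG of 0.691 against 0.474. Members with CAGAC had a median ChIP over input of 2.04 (Activin), 2.60 (DMSO) and 2.81 (SB), and members without it 2.11, 2.27 and 3.09.

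Ribosomal protein promoters carried more pSmad2 ChIP than input tags under all 3 treatments, including SB. In SB, 66 of 77 members were called higher than input (85.7%, against 4.55% of all genes), in DMSO 46 (59.7%, against 3.05%) and in Activin 36 (46.8%, against 1.9%). No member was called lower, beside 0.196%, 0.388% and 0.131% of all genes. Without adjustment, too, 0 members were lower at a p under 0.05 in any treatment by the exact binomial test, beside 3.44% (Activin), 4.48% (DMSO) and 2.73% (SB) of all genes. In tags per kb of window and per 10000000 tags, the members had a ChIP level of 6.17 at the lowest, 21.8 in the median and 59.8 at the highest under Activin. Under DMSO these were 8.24, 27.8 and 72.6, and under SB 7.69, 37.2 and 89.0. Their input levels were 3.67, 10.6 and 22.0, then 5.46, 11.3 and 26.4, and then 4.09, 12.3 and 22.5. The ranges of ChIP and input thus overlap. In Activin the highest input level, 22.0, lay above the median ChIP level of 21.8. The median ChIP over input of the members was 3.02 in SB, 2.36 in DMSO and 2.07 in Activin, beside medians of 1.11, 1.02 and 1.03 over all genes with at least 10 tags. Summed over the members, ChIP tags were 2.97 times input in SB (interval 2.81 to 3.13), 2.44 times in DMSO (2.31 to 2.56) and 2.14 times in Activin (2.02 to 2.26). The members thus made up 0.360% of the genes and 6.78% of the promoters called higher in SB, 7.06% in DMSO and 8.85% in Activin.

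**Figure D1:**
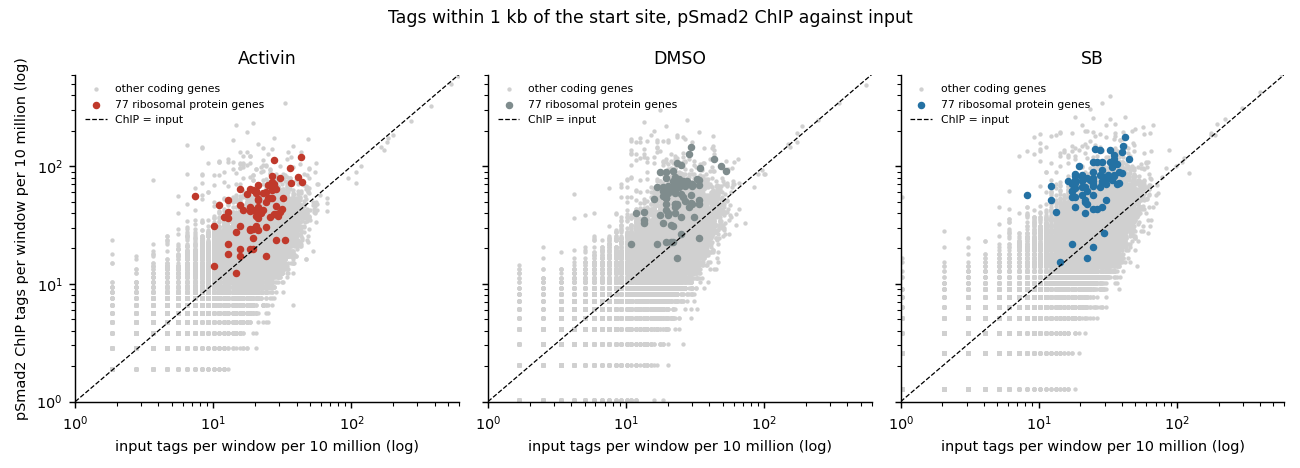
Tags within 1 kb of the start site, per 10000000 tags, in input (x axis, log scale) and pSmad2 ChIP (y axis, log scale), 1 panel for each treatment. Grey points are the other coding genes, coloured points the 77 ribosomal protein genes, and the dashed line marks equal values. Above it lie 73 (Activin), 75 (DMSO) and 74 (SB) members, beside 53.7%, 51.5% and 59.1% of all genes with at least 10 tags.

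Scaling by GC content, in which the expected ratio of the libraries is read from windows of the same base composition far from start sites and peaks, did not remove the excess over input. It gave 66 members called in SB (background 4.83%), 57 in DMSO (5.13%) and 44 in Activin (2.84%), and summed ratios over that expectation of 3.12, 2.76 and 2.33. The members' ChIP over input hardly followed their own GC content, with Pearson's r of -0.095, 0.057 and 0.063 in Activin, DMSO and SB over 75 members with at least 10 tags in every library. Between treatments, the members' log2 ChIP over input had an r of 0.63 (Activin and DMSO), 0.63 (SB and DMSO) and 0.55 (Activin and SB). These points share the libraries of a treatment and the gene's depth, and no test was made on them.

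Of the members, 30 were called in all 3 treatments, against 1.18% of all genes. Another 22 were called in 2 treatments (1.19% of all genes) and 14 in SB alone (2.29%), which is no test of a difference between treatments. Called in none (94.0% of all genes) were 11: Rpl10l, Rpl13a, Rpl18, Rpl29, Rpl35, Rpl39l, Rpl3l, Rplp2, Rps10, Rps27 and Rps27l. In SB 28 of 31 small (90.3%) and 38 of 46 large (82.6%) subunit genes were called, with medians of 3.09 and 3.01. In DMSO 23 of 31 small and 23 of 46 large subunit genes were called, and in Activin 15 and 21. The difference between subunits was not tested.

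**Figure D2:**
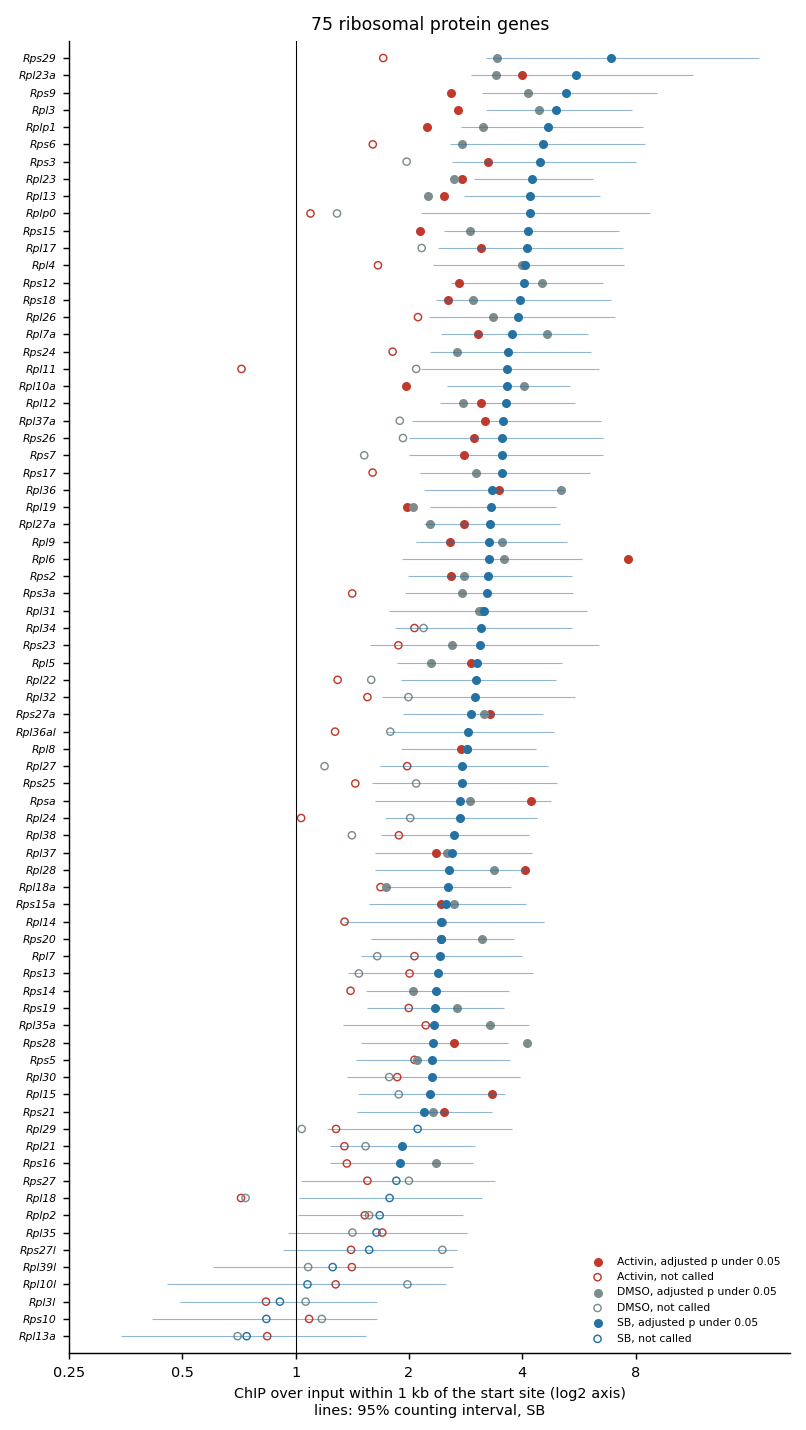
ChIP over input within 1 kb of the start site for 75 of the 77 ribosomal protein genes (x axis, log2 scale; genes on the y axis in the order of their SB value), with a point for each treatment, filled where called at an adjusted p under 0.05, and lines for the 95% counting interval in SB. Most points lie to the right of 1, and the members around or left of it at the bottom include Rpl13a, Rps10 and the paralogs Rpl3l, Rpl10l and Rpl39l.

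Among members with at least 10 input tags, the highest ratios belonged to proteins from all over the ribosome. Rpl23a, a protein near the exit of the peptide tunnel, had 54, 72 and 53 ChIP tags over 14, 26 and 12 input tags in Activin, DMSO and SB, ratios of 3.99, 3.40 and 5.54. Rpl3, which lies close to the peptidyl transferase centre, had 102, 123 and 106 over 39, 34 and 27, ratios of 2.70, 4.44 and 4.92. Rpl36 of the large subunit had 67, 87 and 85 over 20, 21 and 32, ratios of 3.46, 5.08 and 3.33. In each of these genes every ChIP library was above every input library, and the order of the treatments differed from gene to gene.

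Rpsa had 49, 57 and 48 ChIP tags over 12, 24 and 22 input tags, ratios of 4.22, 2.91 and 2.74 in Activin, DMSO and SB. It led the Activin list, and its intervals in the 3 treatments, 2.21 to 8.72, 1.78 to 4.91 and 1.62 to 4.76, overlap. Rpl28 had ratios of 4.07, 3.37 and 2.55, Rps12 2.71, 4.51 and 4.05, Rpl7a 3.05, 4.64 and 3.76, Rps9 2.58, 4.15 and 5.21, and Rplp1, an acidic protein of the ribosomal stalk, 2.23, 3.14 and 4.67. All of these were called in every treatment. Rpl6 in Activin (59 over 8 tags, 7.63) and Rps29 in SB (44 over 8, 6.90) had higher ratios on fewer than 10 input tags and were picked out after their values were seen.

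Of the well-known members, Rpl23 had 126, 112 and 139 ChIP tags over 47, 52 and 41 input tags in Activin, DMSO and SB, and it was called in each. Rps27a, made as a fusion with ubiquitin, had ratios of 3.28, 3.17 and 2.93 and was called in each, and so was Rpl5, which with Rpl11 binds Mdm2 in the nucleolar stress response, with 2.91, 2.29 and 3.03. Rps3, which lies at the entry of the message, had 3.25, 1.97 and 4.46 and missed the threshold in DMSO.

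Rps6, the substrate of the Rps6k kinases, had ratios of 1.60, 2.77 and 4.55 in Activin, DMSO and SB, Rps19, mutated in Diamond-Blackfan anaemia, 2.00, 2.68 and 2.34, and Rps14 1.40, 2.05 and 2.36. These 3 were called in DMSO and SB and not in Activin. Rplp0, the base of the stalk, had 18, 21 and 40 ChIP over 17, 20 and 12 input tags, and Rpl11 25, 46 and 58 over 36, 27 and 20. Both were called in SB and not in the other treatments, as were Rpl22 (1.29, 1.59 and 3.02) and Rpl38 (1.88, 1.41 and 2.63).

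Most paralogs were not called. Rpl3l, made in skeletal and heart muscle in place of Rpl3, had 25, 26 and 21 ChIP tags over 31, 30 and 29 input tags in Activin, DMSO and SB, and its scaled ratios of 0.834, 1.06 and 0.908 lay on both sides of 1. The testis paralog Rpl10l had 21, 21 and 12 over 17, 13 and 14, and Rpl39l 15, 22 and 17 over 11, 25 and 17. Rps27l, a target of p53, had 19, 32 and 35 over 14, 16 and 28, and its DMSO ratio of 2.45 lay above the members' median. With so few tags a missed threshold does not show that there was no excess. None of these 4 was called in any treatment. Rpl36al, a copy of an X-linked gene, was called in SB, with 55 over 24 tags and a ratio of 2.87, and it shares its window with the start of Mgat2.

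Some low values went with the start site that the annotation gave. The start used was that of the transcript with the longest coding sequence. The RefSeq promoter sequences of a later assembly, which listed 56 of the members, were found in mm9 within 20 kb of that start for all 56, for 41 of them within 50 bp and for 50 within 200 bp. In 4 members the RefSeq start lay over 1 kb away: Rpl13a by 7486 bp downstream, Rpl18 by 2614 bp and Rps10 by 1385 bp downstream, and Rpl24 at -7529 bp, upstream.

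At the start used, Rpl13a had 13, 16 and 13 ChIP over 16, 28 and 22 input tags in Activin, DMSO and SB, and at the RefSeq start 75, 106 and 103 over 26, 30 and 33, ratios of 2.98, 4.33 and 3.91. Rpl18 had 18, 24 and 34 over 26, 40 and 24 at the first and 67, 53 and 78 over 28, 22 and 24 at the second, and Rps10 21, 22 and 16 over 20, 23 and 24, and 39, 77 and 61 over 14, 29 and 24. At the RefSeq start all 3 were called in every treatment. Rpl24 went the other way, with 21, 46 and 63 over 21, 28 and 29 at the start used and 21, 27 and 16 over 23, 19 and 9 at the RefSeq start, where it was called in none.

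With RefSeq starts for all genes found, an alternative chosen after seeing the values, 68 members were called in SB (background 4.63%), 49 in DMSO (3.07%) and 38 in Activin (1.95%), and 8 in none: Rpl10l, Rpl24, Rpl29, Rpl39l, Rpl3l, Rplp2, Rps27 and Rps27l. Another coding gene starts within 1 kb of 14 members. Of the 63 members without one, 55 were called in SB, 38 in DMSO and 29 in Activin.

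The excess lay mostly downstream of the start site. In the members the ChIP density rose at the start site and was highest in the bin of 300 to 400 bp downstream in SB, 400 to 500 bp in Activin and 500 to 600 bp in DMSO, at 84.9, 42.4 and 53.1 tags per kb per 10000000 tags. Input was highest within 100 bp of the start site, at 18.5 to 19.9. From 500 bp upstream up to the start, ChIP was 1.20 (Activin), 1.30 (DMSO) and 1.58 (SB) times input, in the first 500 bp of the gene 2.48, 2.84 and 3.97 times, and from 500 to 1000 bp 3.41, 3.85 and 4.23 times. For all genes together the ratio in these segments stayed between 1.04 and 1.31.

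**Figure D3:**
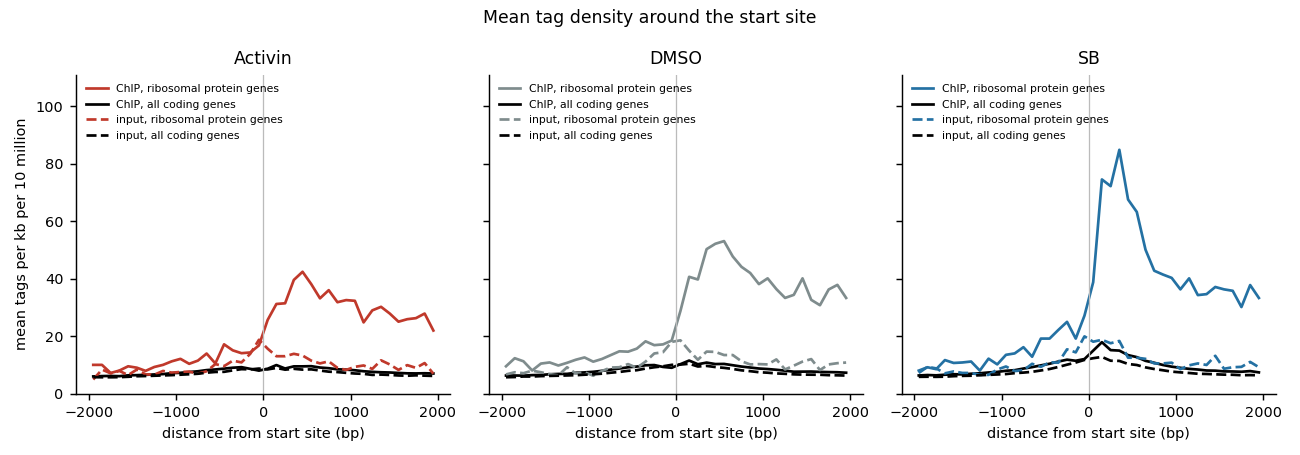
Mean tag density (y axis, tags per kb per 10000000 tags and gene) in 100 bp bins by distance from the start site (x axis, bp; positive is in the direction of transcription), for each treatment. Solid lines are ChIP and dashed lines input, coloured for the 77 ribosomal protein genes and black for all coding genes; the coloured ChIP line rises after the start site and peaks between 300 and 600 bp.

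With the window cut at the start site, the upstream side was called higher than input in 1 member in Activin (background 0.668%), 3 in DMSO (1.15%) and 2 in SB (1.17%), and the downstream side in 33 (1.06%), 51 (1.76%) and 59 (2.85%). These sides, and the region past the gene end, were chosen after seeing the profile. Among those called upstream were Rpl24 in DMSO and SB and Rpl36 in DMSO. Rpl3 shows the common pattern. Its upstream side held 13, 15 and 7 ChIP over 14, 12 and 13 input tags, and its downstream side 89, 108 and 99 over 25, 22 and 14.

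The highest point of the ChIP pileup of 200 bp fragments within the window lay downstream of the start in 66 (Activin), 70 (DMSO) and 68 (SB) members. Beside these were 11419, 11443 and 12480 of all 21410 genes. In the input libraries the highest point lay downstream in 38, 42 and 50 members. The highest ChIP point lay in an intron of the annotated transcript in 70.1%, 77.9% and 72.7% of the members, against 29.5%, 28.5% and 27.5% of all genes. CAGAC occurred within 100 bp of it in 41 (Activin), 31 (DMSO) and 20 (SB) members (53.2%, 40.3% and 26.0%), beside 41.3%, 39.9% and 39.2% of all genes. Tags also counted to introns more than exons over the whole gene. For this the middle of the tag itself was counted, without the move of 100 bp, and the values were not scaled by library totals. In the Activin ChIP library the members had 28.5 tags per kb of intron and 17.5 per kb of exon, and in the Activin input 10.7 and 6.99. Over all genes the order was the reverse, with 5.23 tags per kb of intron and 8.22 per kb of exon in the Activin ChIP library. Ribosomal protein genes have many near-identical processed copies in the genome, which makes counts in their exons uncertain, and the part of this in the exon values was not tested.

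Tags inside the genes, from 1 kb past the start site to the gene end, were in excess over input as well, in a region where more of all genes are called. Of 70 members with at least 500 bp left, 56 (Activin), 63 (DMSO) and 60 (SB) were called higher than input, against 12.8%, 19.8% and 17% of 18710 genes. None was called lower, beside 4.46%, 8.46% and 4.98% of all genes, and without adjustment 1 was lower at a p under 0.05 in Activin and 0 in the other treatments by the exact binomial test. Summed tags were 2.66, 3.07 and 3.14 times input. Called in all treatments were 52 members, against 8.54% of all genes, and in none were Rpl29, Rpl39l and Rpl3l, against 74.2%. Rpl3 had 274, 320 and 253 ChIP tags over 58, 58 and 53 input tags in this region, and the muscle paralog Rpl3l 52, 54 and 58 over 79, 68 and 65.

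The ratio was highest just past the end of the gene, in the members as over all genes. Over 75 members of at least 1 kb, ChIP was 2.56, 2.87 and 3.73 times input in the first of 4 equal parts of the gene in Activin, DMSO and SB, and 3.19, 3.32 and 3.51 times in the last. In the first 1 kb past the end it was 4.30 (interval 3.98 to 4.66), 5.33 (4.96 to 5.74) and 5.47 (5.04 to 5.94) times input, and in the next 1 kb 3.32, 4.17 and 3.92. Before the start, over 2 kb, it was 1.30, 1.41 and 1.53. Over all genes of at least 1 kb the ratio in the first 1 kb past the end was 1.30, 1.41 and 1.44, and inside the gene it lay between 1.02 and 1.09.

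**Figure D4:**
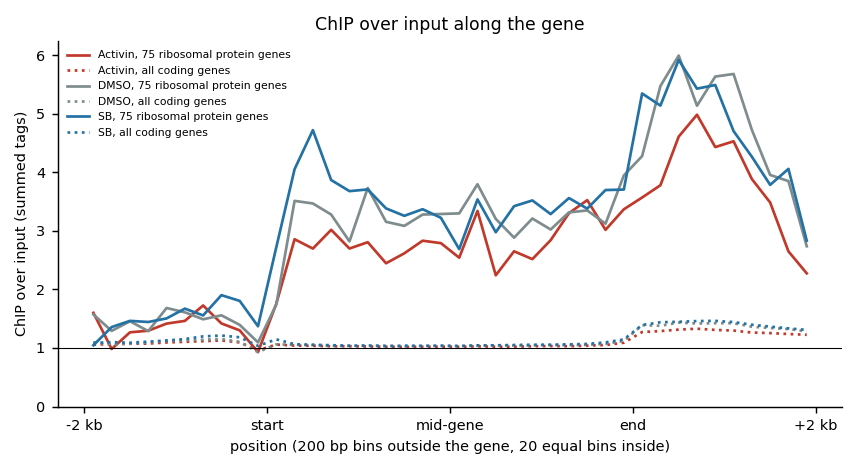
ChIP over input of summed tags (y axis) along the gene, from 2 kb before the start to 2 kb past the end (x axis; 200 bp bins outside, 20 equal bins inside the gene). Solid lines are 75 ribosomal protein genes of at least 1 kb and dotted lines all coding genes; the solid lines step up at the start and again past the end, where they are highest.

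Taken gene by gene, the first 1 kb past the end was called in 53 of 77 members in Activin (background 1.93%), 62 in DMSO (3.33%) and 57 in SB (3.03%). Rplp0, with little excess at its start in Activin and DMSO, had 41, 67 and 44 ChIP over 10, 8 and 9 input tags past its end, ratios of 4.24, 10.3 and 6.13. Rps6 had 33, 32 and 19 over 5, 4 and 7 there, and Rpl3l 11, 27 and 13 over 9, 16 and 11. In 21 members another coding gene reaches into this region. Of the 56 others, 36, 43 and 39 were called, with medians of 4.20, 4.84 and 4.79.

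The genes of 28 members hold a small nucleolar RNA gene on the same strand, Rpl4 as many as 5. Their median promoter ratio was 2.53 (Activin), 2.59 (DMSO) and 3.25 (SB), beside 1.98, 2.19 and 2.86 in the 49 members without one. In the gene bodies these medians were 3.09, 3.73 and 4.18, beside 2.47, 2.97 and 3.30. The difference was not tested.

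Other genes of protein synthesis showed less of this excess. Of 47 translation and ribosome assembly factors, 8 (Activin), 14 (DMSO) and 17 (SB) promoters were called, with medians of 1.49, 1.51 and 1.72. Of 76 genes for proteins of the mitochondrial ribosome, 2, 2 and 3 were called, with medians of 1.15, 1.15 and 1.34, and shares of 2.63%, 2.63% and 3.95% near the background of each treatment. Of 1106 olfactory receptor genes, which stem cells do not use, 1, 2 and 1 were called, with medians of 0.919, 0.892 and 0.836. These lists are described by their counts and medians, without a test between them.

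The authors' peak lists, called by MACS at a p of 1e-05, had a position within 1 kb of the start site of 34 members in Activin (44.2%, against 3.65% of all genes), 37 in DMSO (48.1%, against 4.77%) and 34 in SB (44.2%, against 4.57%). Counted with positions anywhere in the gene, an alternative added later, it was 49 (11.6%), 64 (15.2%) and 56 (12.1%). Within 1 kb, 13 members (0.803% of all genes) had a peak in all 3 lists: Rpl15, Rpl23, Rpl23a, Rpl3, Rpl30, Rpl34, Rpl6, Rpl7, Rpl9, Rps18, Rps20, Rps29 and Rps3. In 21 there was none, as in 90.6% of all genes. Which point of a peak the position marks was not stated, and it may differ between the lists: of the positions within 1 kb, those downstream of the start were 33 of 34 (Activin), 30 of 44 (DMSO) and 11 of 38 (SB). The counts depend on that point and were not compared between lists.

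Between treatments the members differed less than from input. Activin against DMSO gave 0 called members by the exact binomial test, beside 0.00467% of all genes higher and 0.0327% lower, and without adjustment 0 were higher and 18 lower at a p under 0.05, beside 1.96% and 5.60% of all genes. Summed over the members, Activin ChIP tags were 0.811 times DMSO (0.777 to 0.847), with 65 of 77 members below 1, beside a median of 0.922 over all genes. Above 1 were 12 members, beside 42.3% of all genes with at least 10 tags. The GC content of the windows alone gave an expected 1.01, and with that scaling 0 members were called as well, beside 0.014% of all genes lower. The input libraries, compared alike, had a summed ratio of 0.924 (0.869 to 0.983) and 0 called members, beside 0% of all genes, and at an unadjusted p under 0.05 were 1 member higher and 3 lower, beside 1.43% and 4.20% of all genes.

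Against DMSO, SB ChIP tags were 1.30 times as many over the members (1.24 to 1.35), beside a median of 1.21 for all genes and an expected 1.19 from GC content. Above 1 were 67 of 77 members, beside 68.0% of all genes with at least 10 tags. Over the GC expectation 49 members were above 1. Only Rpl13 was called (background 0.472% higher), and no member was called lower (0.0374%). Rpl13, of the large subunit, had 107 ChIP tags in SB and 66 in DMSO, a scaled ratio of 2.02 (1.47 to 2.79, adjusted p = 0.00682, exact binomial test). It had 72 ChIP tags in Activin and 30 to 36 input tags, so that its SB value was the highest and those of Activin and DMSO were close to each other. The call was lost with scaling by GC content, under which 0 members were called (background 0.0234%), and the summed ratio over the GC expectation was 1.09. In the inputs 0 members were called, beside 0% of all genes, and 4 were higher at an unadjusted p under 0.05, beside 4.42% of all genes.

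Activin against SB gave the most calls, with 23 members lower in Activin (29.9%, against 4.24% of all genes) and 0 higher (0.0841%). The summed ratio was 0.625 (0.599 to 0.652), and 75 of 77 members lay below 1, beside a median of 0.776 over all genes. Above 1 were 2 members, beside 28.7% of all genes with at least 10 tags. The GC content of the members' windows alone gave an expected ratio of 0.846, and the summed ratio over that expectation was 0.738. With scaling by GC content 1 member was called, Rpl11 (background 0.121%). Rpl11 had 25 (Activin), 46 (DMSO) and 58 (SB) ChIP tags, a ratio of 0.319 for Activin over SB (0.191 to 0.519, adjusted p = 0.000193, exact binomial test), and 36, 27 and 20 input tags. Its input tags thus run in the reverse order of its ChIP tags.

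Among the other calls of smallest p, Rpl10a of the large subunit had 76 (Activin), 99 (DMSO) and 116 (SB) ChIP tags, a ratio of 0.485 (adjusted p = 0.000237, exact binomial test). The same values were 72, 66 and 107 with a ratio of 0.498 for Rpl13, and 31, 52 and 58 with a ratio of 0.396 for Rps6. In Rpl10a and Rps6 the DMSO value lay between the others, and in Rpl13 it was close to the Activin value. Rpl24, with 21, 46 and 63 tags, had the smallest p at the start used. At its RefSeq start it had 21 tags in Activin and 16 in SB, a ratio of 0.972 that was not called. With RefSeq starts 22 members were called lower (background 4.33%). In the inputs 0 members were called, beside 0.0981% of all genes, with a summed ratio of 0.867 and at an unadjusted p under 0.05 were 2 members higher and 7 lower, beside 1.15% and 8.20% of all genes.

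**Figure D5:**
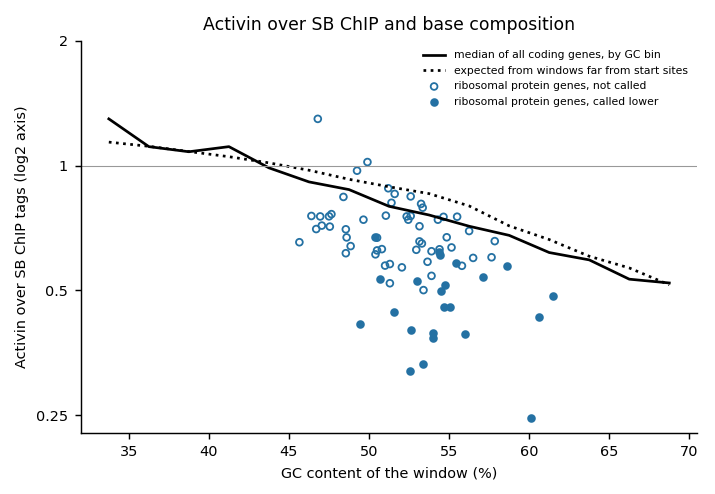
Activin over SB ChIP tags within 1 kb of the start site (y axis, log2 scale) against the GC content of the window (x axis, %) for the 77 ribosomal protein genes, filled where called lower in Activin. The solid line is the median of all coding genes by GC content and the dotted line the expectation from windows far from start sites; both fall with GC content, and all but 5 members lie below their expectation.

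Activin over SB fell with GC content over all genes, from a median of 1.08 in windows of 37.5% to 40% GC to 0.617 in windows of 60% to 62.5%, and the members followed with a Pearson's r of -0.46 over 75 members. Base composition thus moves with this comparison, and beyond the scaling by GC content its part in the result was not tested. In the members' own range the median of all genes was 0.798 at 50% to 52.5% GC and 0.760 at 52.5% to 55%, and the median of the members was 0.629.

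When the input libraries were included, no member was called between treatments, in a test that called almost no gene. The exact conditional test of ChIP over input in a treatment against ChIP over input in another called 0 members in Activin against DMSO, SB against DMSO and Activin against SB, beside 0%, 0% and 0.00467% of all genes. Without adjustment, 3, 7 and 15 members had a p under 0.05, beside 4.65%, 5.04% and 5.25% of all genes, and a p that misses the threshold does not show that treatments were alike. With all tags 1 member was called in Activin against SB. The median ratio of ratios of the members was 0.879, 1.18 and 0.750, and the smallest adjusted p was 0.100, for Rpl11 in Activin against SB, where the ratio of ratios was 0.197.

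Inside the genes, Activin was lowest and SB and DMSO were level, with libraries scaled by their totals. Scaling by GC content was made for the promoter windows only. The part of base composition in the ratios of gene bodies was thus not tested. SB ChIP tags were 0.987 times DMSO (0.952 to 1.02) over the gene bodies of the members, and Activin 0.802 times DMSO (0.774 to 0.831) and 0.812 times SB (0.782 to 0.843). Called lower in Activin than in DMSO were 2 members (background 0.807%; 0.144% of all genes were higher), Rps24 with 70 and 120 tags and Rpl23a with 50 and 92. Rpl23a, with 34 tags in SB, was also the 1 member lower in SB than in DMSO (0.983%; 1.93% of all genes were higher). Lower in Activin than in SB were 4 (3.5%; 1.15% of all genes were higher), namely Rpl13a with 287 and 304 tags, Rpl18 with 106 and 127, Rps10 with 157 and 170 and Rps3 with 158 and 173. The SB library is the smallest, so that these 4 pairs of tag numbers correspond to scaled ratios of 0.618 to 0.699. In Rpl13a, Rpl18 and Rps10 the region counted as gene body holds the RefSeq start, where Activin over SB was 0.539, 0.636 and 0.474, so that these calls include promoter tags.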

How the data were processed

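Measured were the tags of 6 ChIP-Seq libraries of E14 TG2A cells, 1 ChIP and 1 input for each treatment. The authors sequenced on a Genome Analyzer II, aligned to mm9 and deposited tags of 35 bp as positions. They also deposited peak lists from MACS (p cutoff 1e-05), whose tag counts are the authors' own counts per peak. Not given in the sources used here are the aligner, its settings and the MACS release.

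From the deposited tags, counts per gene were made as described, on the NCBIM37 sequence and GENCODE M1, with Python 3.11.15, numpy 2.4.6, scipy 1.17.1 and pandas 2.3.3. The start was that of the protein-coding transcript with the longest coding sequence. The RefSeq promoter sequences, from GRCm38.p6, were matched by sequence and their coordinates were not used. GC scaling used 500 bp windows over 5 kb from coding starts and 2 kb from peaks, in steps of 2.5 points. The tests were checked on simulated counts that held counting error and set changes only. A bias by GC content or a spread between cultures was not simulated, so the check does not cover these. With 1 library per condition the tests compare libraries.

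Members, lists and the rule for named genes were chosen with earlier results of these data known. Named were the 5 highest and 3 lowest members by ChIP over input with at least 10 input tags, at most 6 called members per comparison and direction, well-known members and paralogs. Alternatives were all tags, other scalings, windows of 500 bp, other starts, unmoved tags and a threshold of 0.001. Results at some genes are not reported here.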

Additional observations from a re-analysis of the deposited data

How the results depend on the processing

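Of 138 alternative values of 30 results, 108 stayed within 1.5 times the reported count, 12 were higher and 18 lower. In 43 of the 108 both counts were 0, which says little about stability, so that 65 rest on calls. Windows of 500 bp on each side lowered the members called higher than input to 10 (Activin), 20 (DMSO) and 43 (SB). Over all 21410 genes these calls fell as well, to 179, 269 and 508 from 407, 652 and 974. For SB against DMSO these windows gave 3 members higher, beside 87 of all genes. An adjusted p under 0.001 gave 19 for Activin over input, beside 179 of all genes, and 5 lower for Activin against SB, beside 117. For SB against DMSO it gave 0, beside 2 of all genes higher and 1 lower. In gene bodies it gave 0 members in each of the 3 treatment comparisons. Of all 18710 genes it gave there 3 higher and 24 lower for Activin against DMSO. For SB against DMSO these were 28 and 17, and for Activin against SB 52 and 124. It also gave 1 upstream side in DMSO and 1 in SB, 21 downstream sides in Activin and 35 regions past the gene end in Activin. Of all 21410 genes, 105 upstream sides were called higher in DMSO at this threshold, and slightly fewer in SB. In Activin 110 downstream sides and 184 regions past the gene end were called higher. A single upstream call is too few to set the members apart from all genes. With all tags, shared positions included, members called were 2 lower for Activin against DMSO (0.701% of all genes), 11 higher for SB against DMSO (3.05%), 10 lower for Activin against DMSO in gene bodies (2.77%), 2 and 4 for upstream sides in Activin and SB (0.934% and 1.35%), and 1 lower for Activin against SB over input (0.0420%). For SB against DMSO in gene bodies they were 3, of which 2 were lower (4.38% of all genes). The other, Rpl18, was higher (3.96% of all genes), with 157 and 134 tags and a ratio of 1.55. Rpl18 was not among the reported calls of this comparison, where the called member, Rpl23a, was lower. All tags also gave 1 gene body lower than input in Activin (6.75% of all genes) and 1 upstream side lower in DMSO (0.589%). GC scaling gave 0 for SB against DMSO, beside 5 of all genes higher and 13 lower, and 1 lower for Activin against SB, beside 26. With all tags as well, added after seeing the data, it gave 2 lower for Activin against DMSO and 5 lower for Activin against SB. Beside these were 149 and 158 of all genes. For SB against DMSO it gave 0, beside 56 of all genes higher and 53 lower. Members with a listed peak were 16 in Activin within 500 bp (2.08% of all genes) and 59 in DMSO within 2 kb (6.56%). With the whole gene they were 64 in DMSO (15.2%) and 56 in SB (12.1%). The cause of these changes was not tested. No paired analysis was possible because there was 1 library per condition, and no library could be left out.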
